A study of Homo sapiens with 24 samples.

Results

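The interferon-stimulated genes described here are a list of 39 genes given by symbol, and all 39 were found among the 22026 genes of the deposited mRNA table. The list goes by symbol and sets no threshold on their values here. Of the 39, 29 had a mean of at least 1 RPKM over the 12 libraries and entered the tests, which ran over 12029 genes in all.

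Interferon-stimulated genes are the genes that cells switch on when interferons bind their receptors. Type I and type III interferons act through JAK kinases on a complex that holds STAT2 and IRF9 and binds the interferon-stimulated response element in the promoters of these genes. Their products sense foreign RNA, block viral entry and translation, tether budding virions, attach the ubiquitin-like protein ISG15 to other proteins, or limit the response itself. Lung epithelial cells are a classical site of this programme, and many of the genes keep a basal level without added interferon.

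The cells were A549, an established line from a human lung carcinoma of alveolar type, kept either in control medium or in CAF conditioned medium. CAF is not spelled out in the labels and is the usual abbreviation for cancer-associated fibroblasts. Each medium was sampled at 3, 6, 12, 24, 48 and 72 h, with 1 polyadenylated RNA library per medium and time, so 6 libraries per medium. No genotype, added interferon or virus is named for any of these groups, and all of them share the 1 cell line. The design text speaks of biological replicates that the values do not keep apart, so differences at 1 time have no replicates behind them. The 6 times stand in for replicates of the medium effect. Its p-values rest on how the difference between CAF and control medium varies over the times, change of that effect with time included. They do not measure the spread between cultures of the same time.

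The libraries held 23.88 to 40.57 M reads, recovered from the step between low values. Those of 3 to 12 h held 23.88 to 29.26 M and those of 24 to 72 h held 33.9 to 40.57 M. The 6 epithelial markers of the cell line summed to 4280 to 5043 RPKM in control medium and 3299 to 5530 RPKM in CAF medium. Among them KRT19 was higher in CAF medium at 3 to 12 h (1.58, log2, limma adjusted p = 0.0217). EPCAM was higher over the 6 times (0.82, limma adjusted p = 0.0174) and at 24 to 72 h (1.03, adjusted p = 0.0202). CDH1 was higher at 24 to 72 h (0.94, limma adjusted p = 0.0434). KRT8, KRT18 and KRT7 passed no test of the medium, and other settings were not tried for these markers. All 10 fibroblast markers were in the table and summed to 4.89 to 11.67 RPKM in control medium and 8.67 to 12.03 RPKM in CAF medium. COL1A2, COL3A1, PDGFRB and POSTN stayed below 0.5 RPKM in every library. COL1A1, a fibrillar collagen chain and the one of the 10 with the highest mean RPKM, had 1.37 to 4.27 RPKM in control medium and 2.60 to 5.81 RPKM in CAF medium and rose at 3 to 12 h (1.11 ± 0.23, log2, SE; limma adjusted p = 0.0259). Without 3, 6 or 12 h its adjusted p was 0.0766, 0.174 and 0.0914 (range over alternatives 0.00491 to 0.174), and its part in the results was not tested. The 5 leukocyte markers read here summed to 19.76 to 23.01 RPKM in control medium and 14.41 to 31.97 RPKM in CAF medium. Most of this was CD68, a lysosomal protein, at 18.63 to 22.69 and 13.96 to 30.62 RPKM, with CD14 at 0.25 to 2.20 and 0.43 to 2.13 RPKM. PTPRC, CD3E and LYZ were below 0.5 RPKM throughout. In RNA from whole cultures, fewer cells with a transcript and less of it per cell cannot be told apart.

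Promoters are shown for 7 of the genes because results on the medium or on neighbouring genes turn on them, and they are not a ranking. The sequences are the 250 bases upstream of the RefSeq transcript start, on GRCh38.p14 and in the direction of transcription. Capitals mark each match, on either strand, to the core of the interferon-stimulated response element, spelled GAAA, any 2 bases, GAAA. HERC6 (chr4:88378602-88378851, plus strand) and HERC5 (chr4:88456869-88457118, plus strand) are neighbours on chromosome 4, OAS3 (chr12:112938224-112938473, plus strand) lies between OAS1 and OAS2, and IFIT1 (chr10:89392373-89392622, plus strand) lies between IFIT3 and IFIT5. IFITM1 (chr11:313790-314039, plus strand) and IFITM3 (chr11:320861-321110, minus strand) are neighbours, and BST2 is at chr19:17405631-17405880 on the minus strand.
HERC6: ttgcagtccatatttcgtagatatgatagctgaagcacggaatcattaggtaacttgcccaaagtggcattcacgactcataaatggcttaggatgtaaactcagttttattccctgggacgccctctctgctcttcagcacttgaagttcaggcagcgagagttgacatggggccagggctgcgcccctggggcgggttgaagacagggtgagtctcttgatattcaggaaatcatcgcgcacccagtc
HERC5: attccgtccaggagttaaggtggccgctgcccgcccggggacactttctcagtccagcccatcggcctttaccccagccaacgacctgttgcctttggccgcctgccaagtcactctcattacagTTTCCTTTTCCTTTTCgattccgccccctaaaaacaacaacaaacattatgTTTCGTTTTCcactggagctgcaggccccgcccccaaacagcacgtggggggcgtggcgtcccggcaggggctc
OAS3: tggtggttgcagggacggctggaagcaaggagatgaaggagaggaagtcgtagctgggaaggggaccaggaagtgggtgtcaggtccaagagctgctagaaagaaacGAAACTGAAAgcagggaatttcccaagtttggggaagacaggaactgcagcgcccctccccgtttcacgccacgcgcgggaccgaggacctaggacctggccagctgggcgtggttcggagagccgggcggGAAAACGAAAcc
IFITM1: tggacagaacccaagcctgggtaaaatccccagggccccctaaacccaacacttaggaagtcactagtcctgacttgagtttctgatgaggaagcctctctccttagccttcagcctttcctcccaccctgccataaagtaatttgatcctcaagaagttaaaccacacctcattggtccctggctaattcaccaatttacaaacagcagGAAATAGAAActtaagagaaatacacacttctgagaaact
IFITM3: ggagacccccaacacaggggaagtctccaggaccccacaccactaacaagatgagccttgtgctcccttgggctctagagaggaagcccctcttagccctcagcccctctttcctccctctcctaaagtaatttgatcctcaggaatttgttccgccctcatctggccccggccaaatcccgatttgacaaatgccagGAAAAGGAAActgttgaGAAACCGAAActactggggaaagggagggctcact
BST2: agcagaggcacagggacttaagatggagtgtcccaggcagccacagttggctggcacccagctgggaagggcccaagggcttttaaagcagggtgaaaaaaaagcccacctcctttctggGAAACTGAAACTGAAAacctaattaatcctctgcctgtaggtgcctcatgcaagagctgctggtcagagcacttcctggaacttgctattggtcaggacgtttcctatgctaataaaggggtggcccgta
IFIT1: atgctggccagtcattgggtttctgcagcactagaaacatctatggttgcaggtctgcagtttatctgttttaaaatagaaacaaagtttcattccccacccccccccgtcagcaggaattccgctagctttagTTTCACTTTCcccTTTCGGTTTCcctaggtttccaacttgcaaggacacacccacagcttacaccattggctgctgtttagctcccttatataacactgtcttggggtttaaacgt

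The HERC6 window held 0 matches and the HERC5 window 3, of which neighbouring ones overlap. OAS3, IFITM3, BST2 and IFIT1 held 2 each and IFITM1 held 1. DTX3L, which passed a test of the medium and is not shown, held 0 like HERC6. IFIT1 is shown although it passed no test of the medium in the main fits. A promoter window was found for 31 of the 39 genes, DDX58 under its current symbol RIGI, and the other 8 (IRF7, IFIT2, OAS2, OASL, MX2, USP18, IFITM2 and TRIM22) had no entry. Of the 31, 22 (70.97%) held the core in at least 1 of their windows. Counted over windows of the same length, 25 of 41 windows of these genes (60.98%) held it, against 1056 of 34943 windows (3.02%) in the whole RefSeq table. The gamma-activated site (TTC, any 3 bases, GAA), read on both strands, stood in 10 of the 41 windows (24.39%) and in 6.56% of all windows, and it may overlap the other motif. A match is a description of the letters in this window, and no match says nothing about sites elsewhere.

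Levels of the 39 genes ranged widely in these cells. RPKM is scaled to the length of the gene model, so levels can be set side by side. LGALS3BP, a secreted glycoprotein that binds galectins, had the highest mean at 64.9 RPKM over the 12 libraries, followed by the membrane protein gene IFITM2 at 45.7 RPKM. A wide gap followed, and the next in order were IRF1 at 8.78, IFI35 at 8.25, IFI6 at 7.67 and IFI44 at 7.35 RPKM, whose ranges over the libraries overlap each other. The other 23 tested genes had means of 1.06 (MX1) to 6.65 RPKM (ISG15). The 10 untested genes (EPSTI1, ISG20, IFI27, IRF7, OASL, CMPK2, MX2, RSAD2, XAF1 and OAS2) lay between 0.02 and 1.94 RPKM in all libraries. Well-known members of the programme such as RSAD2 (viperin, at most 0.21 RPKM), MX2 (at most 0.32 RPKM) and OAS2 (at most 0.08 RPKM) were thus close to silent in both media.

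CAF medium did not move these genes as a block. In the test of the medium effect over the 6 times, 3 of the 29 (10.3%) passed limma's moderated test at a Benjamini-Hochberg adjusted p of 0.05 over 12029 genes, against 10.2% of all genes tested. HERC5 rose, and HERC6 and OAS3 fell. The median log2 difference, CAF over control, was -0.10 for the 29 genes and 0.002 for all genes. At an unadjusted p under 0.05 stood 10 of the 29 (34.5%), against 29.8% of all genes. For 0 of the 29 did the 6 control libraries and the 6 CAF libraries keep to ranges that do not overlap. Each range spans 3 to 72 h and so takes in change with time. The share over all genes was not computed, so this count says nothing particular to the 29 genes.

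When the medium effect was fitted apart for 3 to 12 h and for 24 to 72 h, the named genes differed. At 3 to 12 h, 3 of 29 (10.3%) passed, against 5.63% of all genes tested, and all 3 (OAS3, HERC6 and DTX3L) fell. At 24 to 72 h, 4 of 29 (13.8%) passed, against 4.09%, namely IFITM1, IFITM3 and BST2 higher and HERC6 lower. The medians of the 29 genes were -0.05 at 3 to 12 h and -0.01 at 24 to 72 h, beside 0.03 and -0.02 for all genes. The difference between the effects of the 2 periods passed limma's test for 0 of 29 genes, against 0.416% (50 genes) of all genes tested. A gene that passed in 1 period only is therefore not shown to differ between periods. The unadjusted p of this test was under 0.05 for 8 of 29 genes (27.6%), against 11.5% of all genes tested.

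**Figure D1:**
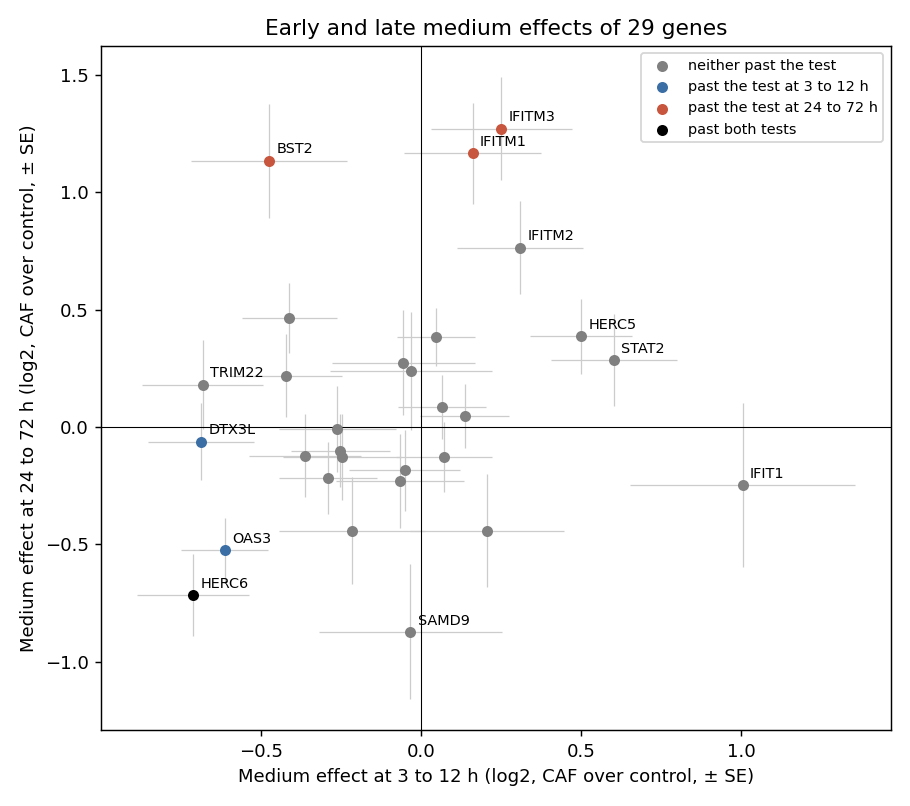
Medium effect at 24 to 72 h (vertical) against that at 3 to 12 h (horizontal) for the 29 tested genes, as log2 differences of RPKM + 0.5, CAF over control, with bars of 1 standard error and colours for the tests passed. HERC6 and OAS3 lie low on both axes, and IFITM1, IFITM3 and BST2 lie high on the vertical axis.

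Single times had 1 library per medium and no test, so a log2 difference of at least 1 in size is given as a description. At 3 h, 1 of 29 genes reached it (BST2, lower in CAF medium), against 2.18% of all genes tested. At 6 h there were 2 (STAT2 and IFIT1, both higher), against 3.29%, and at 12 h 1 (IFIT1, higher), against 4.29%. The count was 5 at 24 h (IFIT1, IFITM1, IFITM2, IFITM3 and BST2, all higher), against 4.09%. It was 4 at 48 h (IFITM1 higher, IFIT1, IFIT5 and SAMD9 lower), against 5.4%. At 72 h it was 2 (IFITM3 and BST2, both higher), against 0.906%.

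**Figure D2:**
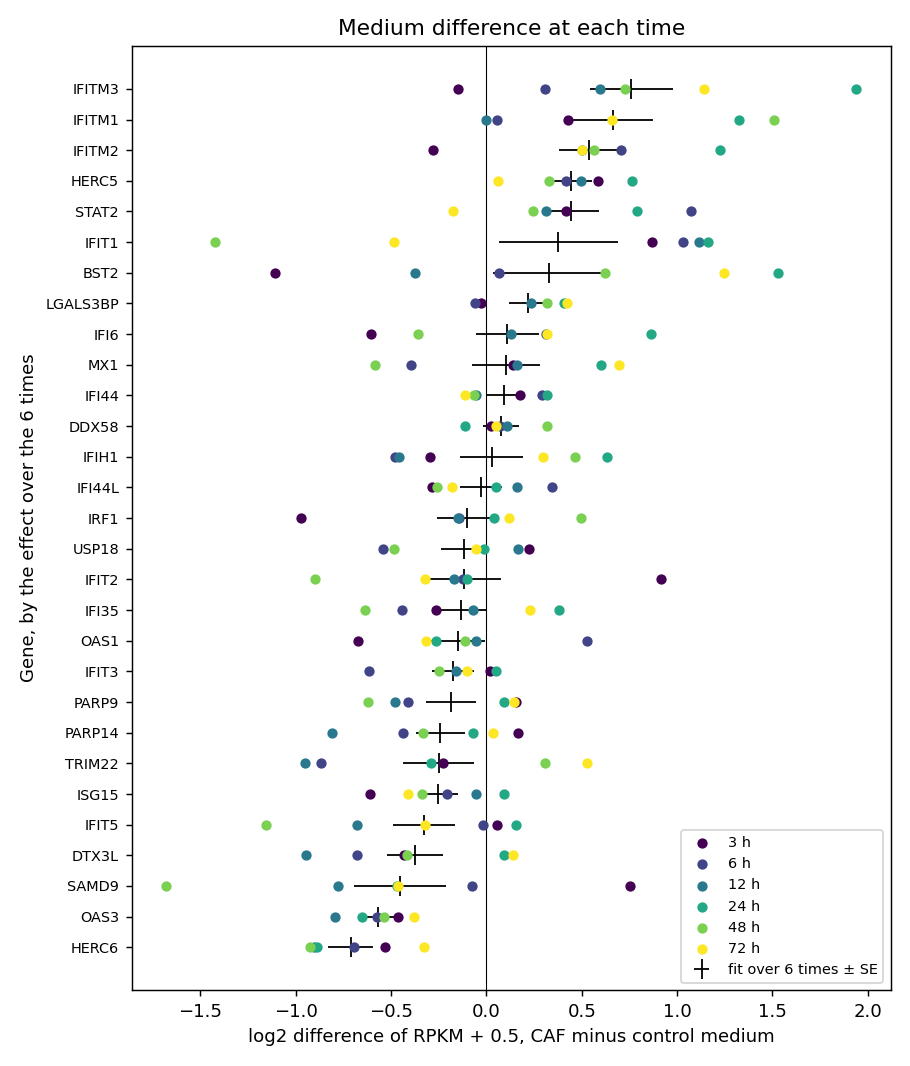
Log2 difference of RPKM + 0.5 (CAF minus control medium, horizontal) for each of the 29 genes at each of the 6 times (coloured points), with the fit over the 6 times and its standard error in black. HERC5 is right of 0 and OAS3 and HERC6 are left of 0 at 6 of 6 times, while IFIT1 spans 1.16 at 24 h to -1.42 at 48 h.

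The ISG15 system parted by gene. ISG15 is a ubiquitin-like protein, HERC5 is the ligase that attaches it to targets in human cells, HERC6 is the related ligase gene beside HERC5, and USP18 removes ISG15 and limits receptor signalling. In the order 3, 6, 12, 24, 48 and 72 h, used for all values that follow, HERC6 had 3.16, 2.66, 2.62, 2.67, 1.82 and 1.28 RPKM in control medium and 2.03, 1.45, 1.17, 1.21, 0.72 and 0.92 RPKM in CAF medium. It was lower in CAF medium at 6 of 6 times and declined in both media, so that the control library of 72 h lies within the CAF range. The effect over the 6 times was -0.71 ± 0.12 (log2, SE; limma adjusted p = 0.0135), at 3 to 12 h -0.71 ± 0.17 (adjusted p = 0.042) and at 24 to 72 h -0.72 ± 0.17 (adjusted p = 0.0465).

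HERC5 went the other way, with 1.45, 1.79, 1.27, 2.44, 4.37 and 4.84 RPKM in control medium and 2.43, 2.56, 2.0, 4.50, 5.62 and 5.08 RPKM in CAF medium. CAF medium was higher at 6 of 6 times, by least at 72 h, and in both media the libraries from 24 h on were above those up to 12 h. Its medium effect was 0.44 ± 0.11 (log2, SE; limma adjusted p = 0.0333). The ratio of HERC5 to HERC6 RPKM was 0.459, 0.673, 0.485, 0.914, 2.40 and 3.78 in control medium and 1.20, 1.77, 1.71, 3.72, 7.81 and 5.52 in CAF medium. HERC6 was thus the more abundant transcript of the pair in control medium up to 24 h, and HERC5 was at every time in CAF medium.

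ISG15 itself lay between 4.47 and 10.16 RPKM and was lower in CAF medium at 5 of 6 times (-0.25 ± 0.11, limma adjusted p = 0.138). USP18 lay between 3.28 and 5.61 RPKM (-0.12 ± 0.12, limma adjusted p = 0.55). Neither passed a test of the medium or of time.

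These calls for HERC5, HERC6 and OAS3 are close to the threshold. Leaving out both libraries of 6, 12 or 24 h gave limma adjusted p of 0.053, 0.0571 and 0.0515 for HERC6 and of 0.0521, 0.0538 and 0.0515 for OAS3 over the remaining times. For HERC5 it gave 0.093, 0.0862 and 0.117, and also 0.0543 without 3 h and 0.054 without 48 h. Over all alternatives the adjusted p ran from 0.00955 to 0.331 for HERC6, from 0.0109 to 0.331 for OAS3 and from 0.023 to 0.481 for HERC5, the highest in each case without the time term. The direction was the same in all of them, and without the filter on low values these calls, like those of single periods given here, were lost. For HERC6 at 24 to 72 h, the adjusted p was 0.0518, 0.0767, 0.0663, 0.169 and 0.338 without 3, 6, 12, 24 and 48 h in turn and 0.0707 after quantile normalization (range over alternatives 0.0368 to 0.386), and at 3 to 12 h it was 0.0639, 0.212 and 0.194 without 3, 6 and 12 h (range 0.0282 to 0.212).

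The OAS family makes oligoadenylates that activate RNase L, which cleaves RNA. OAS3, on chromosome 12, had 7.54, 6.47, 5.43, 6.60, 4.08 and 3.51 RPKM in control medium and 5.32, 4.18, 2.92, 4.01, 2.66 and 2.58 RPKM in CAF medium. It was lower in CAF medium at 6 of 6 times and, like HERC6, declined in both media. The effect over the 6 times was -0.57 ± 0.09 (log2, SE; limma adjusted p = 0.0133), with -0.61 ± 0.14 at 3 to 12 h (adjusted p = 0.0296) and -0.52 ± 0.14 at 24 to 72 h (adjusted p = 0.0541). At 3 to 12 h the adjusted p was 0.175 without 6 h and 0.147 without 12 h (range over alternatives 0.0211 to 0.21). Its neighbour OAS1 lay between 1.71 and 3.77 RPKM, with a smaller difference of the same sign (-0.15 ± 0.14, limma adjusted p = 0.51). The ratio of OAS3 to OAS1 RPKM ran from 0.931 to 3.78 in control medium and from 0.881 to 2.63 in CAF medium. OAS2 and OASL were below 1.1 RPKM everywhere and were not tested.

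**Figure D3:**
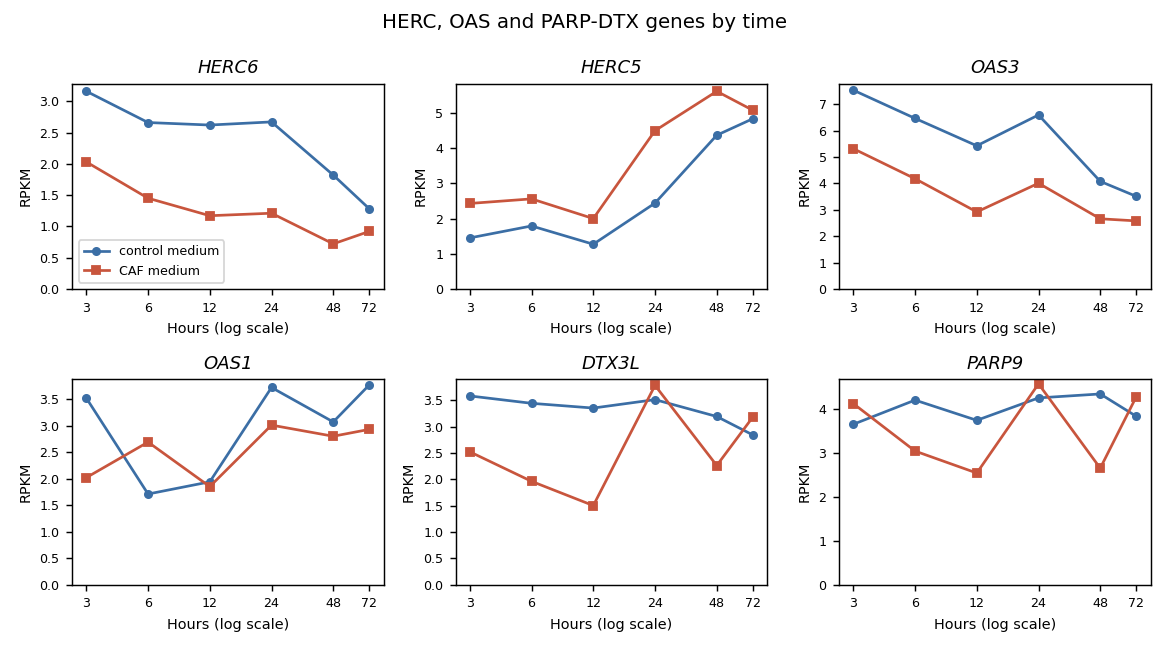
RPKM (vertical, from 0) against time in hours (log axis) for HERC6, HERC5, OAS3, OAS1, DTX3L and PARP9, with 1 library per point, blue for control and red for CAF medium. The CAF line lies below control at all times for HERC6 and OAS3, above it for HERC5, and DTX3L parts from control at 3 to 12 h.

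DTX3L and PARP9 are transcribed from adjacent genes on chromosome 3, and their proteins form a complex in which DTX3L is a ubiquitin ligase. DTX3L had 3.58, 3.44, 3.35, 3.51, 3.19 and 2.84 RPKM in control medium and 2.52, 1.96, 1.50, 3.78, 2.26 and 3.18 RPKM in CAF medium. Control values were nearly flat, whereas CAF values were lower from 3 to 12 h and again at 48 h. At 3 to 12 h the effect was -0.69 ± 0.17 (log2, SE; limma adjusted p = 0.0393), and at 24 to 72 h it was -0.06 ± 0.17 (adjusted p = 0.867). The difference of these effects was 0.62 ± 0.23 (limma adjusted p = 0.337). Without 6 or 12 h the adjusted p at 3 to 12 h was 0.204 and 0.191 (range over alternatives 0.0274 to 0.204). PARP9 lay between 2.54 and 4.57 RPKM and PARP14, close by on the same chromosome, between 3.33 and 7.41 RPKM. Both had their lowest CAF value at 12 h, as DTX3L did, and neither passed a test.

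The membrane restriction factors were higher in CAF medium late in the course. IFITM1, IFITM2 and IFITM3 are small membrane proteins that hinder fusion of virus with the cell, and BST2 (tetherin) holds budding virions on the surface. All 4 were higher in CAF medium over 24 to 72 h, 3 of them past the test, against 4.09% of all genes tested in either direction. The group's median log2 difference was 1.15 there and 0.21 at 3 to 12 h. The difference between the periods passed limma's test for 0 of the 4 (adjusted p of 0.0772 for BST2 to 0.573 for IFITM2). All 4 also rose with time. The 3 IFITM genes are similar in sequence and adjacent on chromosome 11, and the counting step is not given in the sources used here, so reads may be shared between them.

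IFITM3 had 1.75, 2.0, 1.36, 1.01, 4.06 and 3.10 RPKM in control medium and 1.53, 2.60, 2.31, 5.29, 7.06 and 7.45 RPKM in CAF medium. The media were alike at 3 h, and from 24 h on each CAF library was above every control library. At 24 to 72 h the effect was 1.27 ± 0.22 (log2, SE, limma adjusted p = 0.00972, range over alternatives 0.00492 to 0.386). That call was kept without each of the 6 times in turn, and lost without the filter on low values or without the time term. Over the 6 times the effect was 0.76 ± 0.22 (limma adjusted p = 0.0507), and the adjusted p was 0.0243 without 3 h, where CAF was lower (range over alternatives 0.0243 to 0.356).

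IFITM1 had 0.05, 0.23, 0.36, 0.19, 0.91 and 2.64 RPKM in control medium and 0.24, 0.26, 0.36, 1.23, 3.51 and 4.46 RPKM in CAF medium. Both media began near 0, with 1 to 7.1 reads per library up to 12 h, and CAF medium was above 1 RPKM from 24 h, control medium at 72 h. The effect at 24 to 72 h was 1.17 ± 0.21 (log2, SE; limma adjusted p = 0.013), with 0.179 without 48 h (range over alternatives 0.00811 to 0.386). At the low level of the early times the added 0.5 RPKM understates fold changes.

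IFITM2 had 30.67, 27.45, 27.92, 24.97, 52.25 and 57.45 RPKM in control medium and 25.21, 45.15, 39.66, 59.07, 77.48 and 81.57 RPKM in CAF medium. CAF medium was higher at 5 of 6 times, all but 3 h. The effect missed the threshold over the 6 times (0.54 ± 0.16, limma adjusted p = 0.0511) and at 24 to 72 h (0.76 ± 0.20, adjusted p = 0.0541), and leaving out 3 h gave 0.0158 and 0.0255 (ranges over alternatives 0.0158 to 0.392 and 0.0255 to 0.386). IFITM2 RPKM were 12.9 to 24.7 times those of IFITM3 in control medium. The ratio was 16.5 to 17.4 in CAF medium up to 12 h and 10.9 to 11.2 from 24 h on.

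BST2, on chromosome 19, had 1.12, 0.13, 0.81, 0.40, 2.26 and 3.21 RPKM in control medium and 0.25, 0.16, 0.51, 2.10, 3.75 and 8.31 RPKM in CAF medium. CAF medium was lower at 3 and 12 h and higher from 24 h on, with log2 differences of 1.53, 0.62 and 1.25 at 24, 48 and 72 h. The effect was 1.13 ± 0.24 at 24 to 72 h (log2, SE; limma adjusted p = 0.0279) and -0.47 ± 0.24 at 3 to 12 h (adjusted p = 0.252), and their difference of 1.61 ± 0.34 missed the threshold (limma adjusted p = 0.0772, with 0.0328 after quantile normalization, range over alternatives 0.0328 to 0.731). Without 12, 24, 48 or 72 h the adjusted p at 24 to 72 h was 0.0568, 0.117, 0.0842 and 0.0888, and with a pseudocount of 0.1 it was 0.0705 (range over alternatives 0.0135 to 0.398). Its values rest on 2.9 to 317 reads per library.

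**Figure D4:**
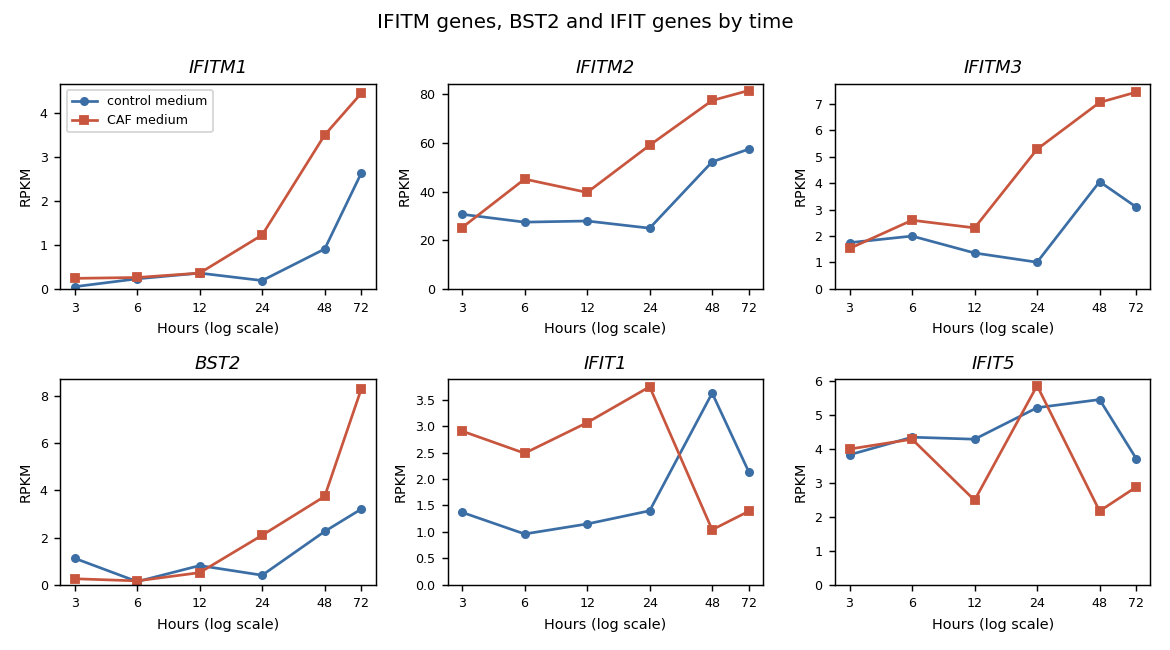
RPKM (vertical, from 0) against time in hours (log axis) for IFITM1, IFITM2, IFITM3, BST2, IFIT1 and IFIT5, with 1 library per point, blue for control and red for CAF medium. The IFITM genes and BST2 climb in both media and stand higher in CAF medium from 24 h, while IFIT1 is higher in CAF medium up to 24 h and lower at 48 and 72 h.

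IFIT proteins bind foreign or unmethylated RNA ends and block their translation, and 4 of their genes lie together on chromosome 10. IFIT1 had 1.37, 0.96, 1.15, 1.40, 3.63 and 2.14 RPKM in control medium and 2.91, 2.49, 3.07, 3.75, 1.04 and 1.39 RPKM in CAF medium. Each of the 4 CAF libraries from 3 to 24 h was above the control of its time, and those of 48 and 72 h were below it. The effect was 1.01 ± 0.35 at 3 to 12 h (log2, SE; limma adjusted p = 0.107) and -0.25 ± 0.35 at 24 to 72 h (adjusted p = 0.732), a period in which the signs at 24 and 48 h are opposite. The fit that leaves out 24 h gave an adjusted p of 0.00906 at 3 to 12 h (range over alternatives 0.00906 to 0.335).

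The other IFIT genes are given beside it, and differences between IFIT genes were not tested. IFIT5 had 3.83, 4.35, 4.29, 5.22, 5.46 and 3.72 RPKM in control medium and 4.0, 4.29, 2.49, 5.87, 2.17 and 2.88 RPKM in CAF medium. It was lower in CAF medium at 12, 48 and 72 h and close to control at the other times (-0.33 ± 0.16, limma adjusted p = 0.208). IFIT2 lay between 0.76 and 1.89 RPKM, with a log2 difference of 0.92 at 3 h and -0.90 at 48 h. From the early to the late period the medium effect shifted by -1.25 ± 0.50 for IFIT1 (limma adjusted p = 0.37) and by -0.65 ± 0.34 for IFIT2 (adjusted p = 0.492). The shift of IFIT1 was -1.96 (adjusted p = 0.0113) without 24 h (range over alternatives 0.0113 to 0.879). IFIT3 lay between 2.07 and 4.27 RPKM, and IFIT2 and IFIT3 passed no test. The ratio of IFIT1 to IFIT3 RPKM was 0.681 to 1.20 in CAF medium up to 24 h and 0.314 to 0.369 after it, against 0.279 to 0.376 and 0.523 to 0.903 in control medium.

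Among the signalling and transcription factors, STAT2 is part of the complex that binds the response element. STAT2 had 3.53, 2.27, 4.22, 3.53, 5.77 and 6.69 RPKM in control medium and 4.89, 5.33, 5.37, 6.47, 6.92 and 5.87 RPKM in CAF medium. CAF medium was higher at 5 of 6 times and narrow in range, and control values rose from a low at 6 h. The effect was 0.44 ± 0.15 (log2, SE; limma adjusted p = 0.0748), and 0.03 without 72 h (range over alternatives 0.03 to 0.349). IRF1, a transcription factor induced by interferon gamma and by other interferons, had 11.40, 6.01, 5.92, 8.23, 9.72 and 12.20 RPKM in control medium and 5.56, 5.39, 5.29, 8.49, 13.92 and 13.28 RPKM in CAF medium. The largest gap was at 3 h, where CAF medium had fewer, and the effect over the 6 times was -0.10 ± 0.16 (limma adjusted p = 0.699). IRF7, which drives the interferon genes themselves, lay between 0.39 and 1.18 RPKM and was not tested.

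Neither of the RNA sensors, DDX58 and IFIH1, passed a test of the medium. DDX58 (RIG-I), which recognises short RNA with a triphosphate end, had 3.23, 3.15, 3.44, 4.36, 4.18 and 4.53 RPKM in control medium and 3.29, 3.34, 3.74, 3.99, 5.34 and 4.72 RPKM in CAF medium. Its medium effect was 0.08 ± 0.09 (log2, SE; limma adjusted p = 0.609). IFIH1 (MDA5), which recognises long double-stranded RNA, had 2.09, 1.84, 1.60, 1.71, 2.38 and 3.29 RPKM in control medium and 1.61, 1.18, 1.03, 2.93, 3.48 and 4.16 RPKM in CAF medium. CAF medium was lower at each time from 3 to 12 h and higher at each time from 24 to 72 h. The effects were -0.41 ± 0.15 (limma adjusted p = 0.119) and 0.47 ± 0.15 (adjusted p = 0.106), and their difference was 0.88 ± 0.21 (adjusted p = 0.109).

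TRIM22, an antiviral ubiquitin ligase, had 3.89, 3.78, 3.93, 4.74, 3.62 and 5.56 RPKM in control medium and 3.25, 1.85, 1.79, 3.78, 4.59 and 8.24 RPKM in CAF medium. CAF values were lower up to 24 h and higher at 48 and 72 h. At 3 to 12 h the effect was -0.68 ± 0.19 (log2, SE; limma adjusted p = 0.0585), with 0.043 without 3 h and 0.0274 without 24 h (range over alternatives 0.0274 to 0.278). SAMD9, which restricts poxviruses, had 2.09, 2.56, 2.83, 3.95, 3.92 and 2.98 RPKM in control medium and 3.87, 2.41, 1.44, 2.71, 0.88 and 2.02 RPKM in CAF medium. It was higher in CAF medium at 3 h and lower at the other 5 times, most at 48 h, and no test was passed (24 to 72 h: -0.87 ± 0.29, limma adjusted p = 0.115).

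MX1, a GTPase that traps viral nucleocapsids, had 0.59, 0.75, 0.67, 0.64, 1.72 and 1.48 RPKM in control medium and 0.70, 0.45, 0.81, 1.23, 0.98 and 2.71 RPKM in CAF medium. The media overlap and the sign changes from time to time (0.10 ± 0.18 over the 6 times, limma adjusted p = 0.735). LGALS3BP had 53.98, 52.06, 47.41, 52.33, 71.95 and 78.23 RPKM in control medium and 52.96, 49.86, 55.85, 69.67, 89.79 and 105.03 RPKM in CAF medium. Up to 6 h the media were alike, and from 12 h CAF medium was higher (24 to 72 h: 0.38 ± 0.12, limma adjusted p = 0.107).

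IFI6, a small protein of mitochondria and the endoplasmic reticulum, had 10.46, 5.64, 7.32, 4.26, 8.67 and 8.38 RPKM in control medium and 6.71, 7.12, 8.06, 8.16, 6.65 and 10.57 RPKM in CAF medium. No order between the media held across times. IFI35, which binds NMI, had 11.11, 11.25, 8.79, 6.30, 7.41 and 7.09 RPKM in control medium and 9.18, 8.13, 8.34, 8.37, 4.58 and 8.39 RPKM in CAF medium. Its CAF library of 48 h stands below the others. IFI44 had 4.83, 5.70, 7.0, 7.80, 8.90 and 8.50 RPKM in control medium and 5.52, 7.09, 6.71, 9.84, 8.48 and 7.84 RPKM in CAF medium, and its neighbour IFI44L lay between 3.06 and 7.25 RPKM. The media differed by less than their spread over time in IFI6, IFI35, IFI44 and IFI44L, with limma adjusted p of 0.691, 0.534, 0.55 and 0.884.

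More of these genes passed the test of time than that of the medium over the 6 times, and so did more of all genes (34.4% against 10.2%). These tests differ in their terms and in the spread they use, so the counts do not compare sizes of change. With medium as a term, the slope on log2 hours passed limma's test for 16 of 29 genes (55.2%), against 34.4% of all genes tested, with 13 rising and 3 falling. The median slope of the 29 genes was 0.09 log2 units per doubling of the hours, and 0.02 for all genes. The libraries of 24 to 72 h were also the deeper ones (33.9 to 40.57 against 23.88 to 29.26 M reads), and the part of depth or of culture time in these slopes was not tested. Control and CAF libraries of 1 time enter as separate replicates, so these p-values can be too small.

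The steepest rises were those of BST2 (0.58 ± 0.11 per doubling, limma adjusted p = 0.00193) and IFITM1 (0.55 ± 0.08, adjusted p = 0.000375). IFITM3 followed at 0.31 ± 0.07 (limma adjusted p = 0.00547), HERC5 at 0.30 ± 0.05 (adjusted p = 0.00106) and IFITM2 at 0.28 ± 0.05 (adjusted p = 0.00147). HERC6 fell by 0.19 (limma adjusted p = 0.0017) and OAS3 fell by 0.19 (adjusted p = 0.00199). IFI35 fell by 0.13 per doubling (limma adjusted p = 0.031). The other risers were MX1 (0.24), IFIH1 (0.21), IRF1 (0.20), TRIM22 (0.19), LGALS3BP (0.18), STAT2 (0.15), IFI44 (0.14) and DDX58 (0.12), with limma adjusted p of 0.00259 to 0.045.

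The slopes of BST2, IFITM1, IFITM2, HERC5, DDX58, HERC6 and OAS3 passed without each of the 6 times in turn. Without 72 h the limma adjusted p was 0.0541 for IFITM3, 0.0585 for LGALS3BP and 0.0847 for MX1, and without 3 h it was 0.0696 for IFI44. Leaving out 6, 48 or 72 h gave 0.0537, 0.0519 and 0.179 for IFIH1, 0.104, 0.0842 and 0.202 for IRF1, and 0.051, 0.0758 and 0.0716 for STAT2. For IFI35 the adjusted p was 0.128, 0.0909 and 0.111 without 3, 6 and 48 h, and for TRIM22 it was 0.126, 0.0702, 0.053 and 0.38 without 6, 24, 48 and 72 h, with 0.076 after median centring and 0.0916 after quantile normalization. With no filter on low values it was 0.0541 for IFI35, 0.0564 for IRF1 and 0.0946 for TRIM22. Over the alternatives of these 9 genes it ran from 0.000696 to 0.38. A difference in slope between the media passed for 0 of 29 genes, against 0% (0 genes) of all genes tested, with 4 of 29 at an unadjusted p under 0.05 and 1152 of 12029 genes over all.

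**Figure D5:**
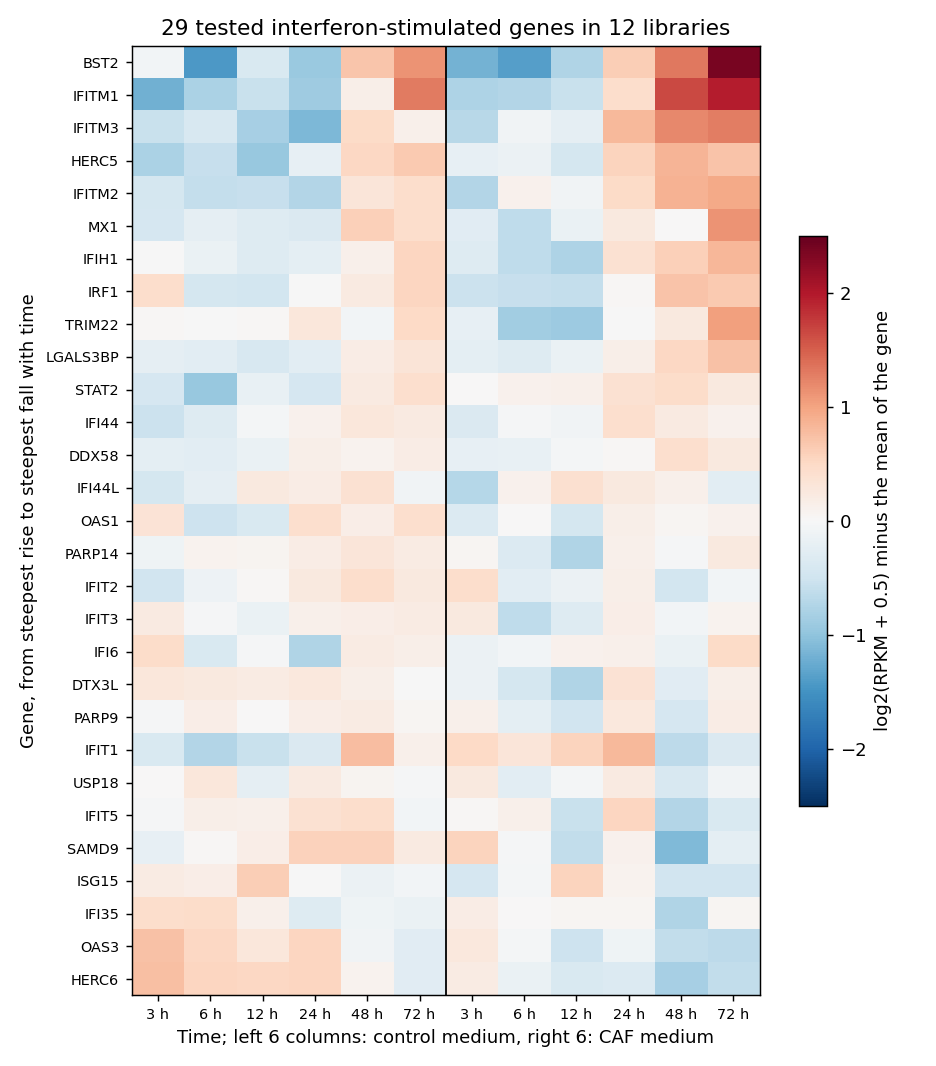
Log2(RPKM + 0.5) of the 29 tested genes minus the mean of each gene, in colour, for the 6 control libraries (left) and the 6 CAF libraries (right) from 3 to 72 h, with genes ordered by slope. BST2, IFITM1 and IFITM3 at the top turn from blue to red with time and reach the strongest red in CAF medium, and OAS3 and HERC6 at the bottom turn from red to blue.

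The rest of the pathway was read from lists of interferon ligands, receptors, signal transducers, sensors, negative regulators and further target genes, of which 67 genes were tested. Over the 6 times, 3 of the 67 rose and 5 fell (11.9%, against 10.2% of all genes tested). Of 13 ligand symbols listed, aliases among them, 4 were in the table (IFNA1, IFNK, IFNW1 and IFNG), at most at 0.04 RPKM. The other ligand symbols and IRF9 were searched for by symbol and not found there, so they have no values here. The receptor genes IFNAR1 (4.32 to 7.19 RPKM), IFNAR2 (11.91 to 25.04 RPKM), IL10RB, IFNGR1 and IFNGR2 were all expressed. Over the 6 times, 0 of 5 passed the test of the medium (smallest limma adjusted p = 0.208). At an unadjusted p under 0.05 stood 0 of 5, against 29.8% of all genes tested. The smallest limma adjusted p was 0.293 at 3 to 12 h and 0.144 at 24 to 72 h. In the later period 1 of 5 (IFNAR2, 0.46 on the log2 scale) stood at an unadjusted p under 0.05, against 21.3%. The slope on log2 hours passed limma's test for 4 of 5, all rising, against 34.4%. IFNLR1, the receptor chain specific to type III interferon, lay between 0.24 and 0.76 RPKM.

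IRF3, the factor activated by the RNA sensors, rose (0.49 ± 0.14, limma adjusted p = 0.0468), as did PIAS1, which restrains interferon signalling (0.40 ± 0.10, adjusted p = 0.0325). TNFSF10, the death ligand TRAIL, had 0.08 to 4.87 RPKM in control medium and 1.24 to 7.73 RPKM in CAF medium and rose by 1.17 ± 0.20 (limma adjusted p = 0.0135).

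GBP1, a GTPase typical of interferon gamma responses, fell over the 6 times (-0.53 ± 0.15, limma adjusted p = 0.0494), with 9.28 to 25.69 RPKM in control medium and 9.05 to 16.09 RPKM in CAF medium. NMI, the partner of IFI35, fell by 0.59 on the log2 scale (limma adjusted p = 0.0203), SLFN5 by 0.47 (adjusted p = 0.0322) and PNPT1 by 0.42 (adjusted p = 0.044). WARS, named here because it completes the count and outside the rule for names, fell by 0.36 (limma adjusted p = 0.0492). In the fit for 3 to 12 h, 4 of the 67 rose and 3 fell (10.4%, against 5.63%). IFI27L1 rose (0.58, limma adjusted p = 0.0323), and GBP3 (-0.63, adjusted p = 0.0369) and DDX60L (-0.51, adjusted p = 0.0448) fell, besides TNFSF10, IRF3 and PIAS1, which rose, and GBP1, which fell. At 24 to 72 h, 1 of the 67 passed (1.5%, against 4.09%), NMI (-0.70, limma adjusted p = 0.0397). With time, 17 of the 67 rose and 2 fell (28.4%, against 34.4%), and after median centring 11 rose and 6 fell.

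The pathway calls for the medium did not hold without the libraries of 6 or 12 h. Without 6 h or without 12 h, 0 of the pathway genes passed over the 6 times or in either period. The interferon-stimulated genes likewise kept no call over the 6 times or at 3 to 12 h, while IFITM1 and IFITM3 still passed at 24 to 72 h. Among all genes tested, leaving out 1 time gave as few as 34 calls over the 6 times. The lowest counts were 0 at 3 to 12 h and 31 at 24 to 72 h. The losses are therefore not shown to be particular to the pathway genes. Over the 6 times limma adjusted p without 6 h was 0.053 for TNFSF10, 0.0723 for NMI, 0.0833 for SLFN5, 0.0924 for PIAS1, 0.107 for WARS, 0.115 for PNPT1, 0.126 for GBP1 and 0.133 for IRF3. Leaving out 24 h kept TNFSF10 alone (1 higher, 0 lower), and leaving out 3, 48 or 72 h gave 1, 2 and 3 higher and 6, 1 and 3 lower. The ranges of limma adjusted p over all alternatives were 0.00983 to 0.349 for TNFSF10, 0.0317 to 0.349 for GBP1, 0.0342 to 0.338 for IRF3 and 0.015 to 0.338 for NMI. For the early period, leaving out 6 or 12 h gave 0.151 in both cases for IFI27L1, 0.205 and 0.169 for GBP3, and 0.228 and 0.174 for DDX60L. For NMI at 24 to 72 h the adjusted p was 0.0558, 0.0648, 0.102 and 0.349 without 6, 12, 24 and 48 h. The rises of pathway genes with time numbered 8 without 6 h, 11 without 48 h and 5 without 72 h.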

How the data were processed

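Libraries of polyadenylated RNA were made from A549 cells at 6 times in 2 media, 12 in all. The RPKM values (reads scaled to the length of the gene model and to library size) were deposited by the authors to 2 decimals. The submitters' processing notes name TopHat2, edgeR and the build hg19, without versions. How reads were counted, whether strand was used and how replicates were joined is not given in the sources, so reads of overlapping, antisense or near-identical genes cannot be told apart. Small RNA values were not used.

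Medium and time came from the labels, and columns were matched through the code in each sample description. Depth was recovered from low values of genes shorter than 400 bases, of which 100% (69 to 89 values in each library) were whole reads within 0.1 read. Genes averaging 1 RPKM or more were fitted as log2(RPKM + 0.5) with limma 3.58.1 in R 4.3.3 (lmFit, then eBayes with trend, two-sided, Benjamini-Hochberg over 12029 genes, threshold 0.05). Terms were medium with time as a block, medium by period, or medium with log2 hours. The block comes from the design, since both media were collected at each time. The scripts were tested on simulated data. Values in every library are printed for genes past a threshold in any fit, for the 6 highest, and for those with a log2 difference of at least 1 at any time. Of other pathway genes, at most 10 past the threshold for the medium were to be named. The genes and lists were chosen with earlier results of these data known. Promoters are RefSeq sequences on GRCh38.p14, a build other than hg19, matched by symbol. Alternatives were pseudocounts of 0.1 and 1, no filter, median centring, quantile normalization, the rank of the time, no time term, and leaving out each time.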

Additional observations from a re-analysis of the deposited data

Results flagged for a closer look

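In 3 of 58 groups of 6 libraries (29 genes in each medium), 1 library stood far from the other 5. The measure was Dixon's ratio of its gap to the range of the group. Its chance rate of about 1 in 20 is for independent draws from 1 normal distribution. These groups are 6 successive times, so that rate does not apply, and change with time can give a flag. The slopes of IFITM1 and MX1 on time passed limma's test, and both were flagged at 72 h. IFI35 had 4.58 RPKM in CAF medium at 48 h (ratio 0.772), the lowest of its group. IFITM1 had 2.64 RPKM in control medium at 72 h (ratio 0.668), the highest of its group. MX1 had 2.71 RPKM in CAF medium at 72 h (ratio 0.655), the highest of its group.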

How the results depend on the processing

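Counts of genes past the threshold depended on the filter, on the time term and on single times. Without a filter on low values, 0 genes passed over the 6 times, 0 at 3 to 12 h, 36 at 24 to 72 h and 0 for the difference of periods, with 0 of the interferon-stimulated genes in each direction. With no replicate block (no time term), these counts were 0, 13, 0 and 0, again with 0 of the 29. With a pseudocount of 1, 3 of the 29 rose over the 6 times. Quantile normalization gave 0 lower at 24 to 72 h and 1 higher (BST2) for the difference of periods. Genes with a single-time log2 difference of at least 1 numbered 5, 0 and 2 at 3 h (pseudocount 0.1, pseudocount 1, median centring), 0 and 1 at 6 h (pseudocount 1, median centring), 4 and 0 at 12 h (pseudocounts 0.1 and 1) and 3 at 24 h (pseudocount 1).

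Leaving out each time in turn gave 34 to 1399 genes over the 6 times (0 to 2 of the 29 higher, 0 to 2 lower), 0 to 1084 at 3 to 12 h (0 to 2 higher, 0 to 4 lower), 31 to 542 at 24 to 72 h (1 to 4 higher, 0 to 1 lower), 0 to 242 for the difference of periods (0 to 1 lower) and 1572 to 4296 for the slope (7 to 14 higher). The cause was not tested, beyond fewer libraries.

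Values that had not passed a test changed sign under quantile normalization for IFIH1 (-0.024) and MX1 (-0.057) over the 6 times, IFITM1 at 3 to 12 h (-0.11) and IFI35 at 24 to 72 h (0.019, and 0.007 after median centring). Leaving out 1 time changed the sign over the 6 times for IRF1 (-0.22 to 0.073), IFIH1 (-0.093 to 0.13), IFIT2 (-0.32 to 0.04), MX1 (-0.015 to 0.24), IFI6 (-0.041 to 0.25) and IFI44L (-0.10 to 0.023). At 3 to 12 h it did so for IFIT2 (-0.15 to 0.40), IFIT5 (-0.35 to 0.019), OAS1 (-0.36 to 0.24), MX1 (-0.13 to 0.15), USP18 (-0.19 to 0.20), SAMD9 (-0.43 to 0.34), LGALS3BP (-0.044 to 0.10), IFI6 (-0.24 to 0.22) and IFI44L (-0.063 to 0.25). At 24 to 72 h it did so for DDX58 (-0.03 to 0.19), IFIT1 (-0.95 to 0.34), PARP9 (-0.26 to 0.12), DTX3L (-0.16 to 0.12), IFI6 (-0.02 to 0.59), IFI35 (-0.20 to 0.31) and IFI44 (-0.088 to 0.13). Among the medium effects of the 29 genes over the 6 times and in each period, the slopes that passed and the differences of periods given for BST2, DTX3L, IFIH1, IFIT1 and IFIT2, no other value changed sign. Calls of the 29 genes were lost in 27 cases under another setting and in 48 with a time left out, and gained in 5 and 9. Low levels limit IFITM1 and BST2, with 1 to 7.1 and 2.9 to 27.9 reads per library up to 12 h.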
